A study of Gallus gallus with 6 samples.

Results

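The genes described here drive DNA replication, mitosis and kinetochore assembly, and were read in blood leukocytes of chickens aged 1 to 2 months. The list held 49 of them, and a gene counted as measured when an array probe carried a RefSeq accession of that symbol and its signal passed the scanner's background test on 3 or more of the 6 arrays. Of the 49 genes, 34 were measured, out of 29509 features tested on the array, and each was represented by its brightest probe. They comprised 7 replication genes and 27 mitosis genes. No probe was matched by accession to the other 15, which are MCM4, CDC6, CDC45, TYMS, RRM2, CCNB2, AURKA, MKI67, AURKB, CENPC, CENPE, CENPF, SPC24, TTK and UBE2C, and they were not analysed here. The gene that carries CCNB2 as a synonym in the RefSeq table is listed there as CCNB1, and it is given below with the mitosis genes outside the list.

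Dividing cells first load the MCM helicase onto replication origins and raise their supply of nucleotides, then copy their DNA around the sliding clamp PCNA. Cyclin-dependent kinase CDK1, with cyclins A and B, later drives entry into mitosis, where spindle microtubules attach to kinetochores built on the centromeric histone CENPA. The spindle checkpoint, which includes BUB1, BUB1B and MAD2L1, holds back the anaphase-promoting complex and its activator CDC20 until attachment is complete. Most of these transcripts are made in cycling cells and are low in resting ones, so in blood they are commonly used to mark proliferating cells.

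The study asked which genes differ between male and female leukocytes, and the cells were separated from blood of the wing vein on a Ficoll gradient. Groups were 3 samples labelled male and 3 labelled female, with 1 Cy3 array each. The series title speaks of transgenic and non-transgenic chickens, but the labels give no transgene, strain or treatment for these samples. They do not say whether each sample came from a separate bird, so p-values measure only the spread between these samples, which may be technical. Each array held 43803 non-control spots, 79.0% to 83.1% of them well above background and 0 saturated. Precision is limited by having only 6 arrays. Each label had its own slide and scan, which means that an effect of the slide and one of the label cannot be told apart.

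Of the 6 libraries, 2 went against their sex labels. On the brightest of its 8 probes the W-linked gene HINTW read 4.58, 4.48 and 6.99 in the libraries labelled male 1, 2 and 3, against 6.61, 6.47 and 4.65 in those labelled female 1, 2 and 3. All such readings are log2 of the processed signal less the array's 75th percentile, so 0 is that percentile and a step of 1 is a doubling. Birds with a W chromosome are female, and the library labelled male 3 read like those labelled female 1 and 2, while the library labelled female 3 read like those labelled male 1 and 2. The same 3 libraries were the highest on all 8 probes, and the gap was wider on the other 7. Each direction below is therefore between labels as deposited, and for members and list medians the value without male 3 and female 3 ("without both") is also given. That alternative was chosen with the HINTW values known. Where 3 values are given for a label, they are libraries 1, 2 and 3 in that order.

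Over the whole list, the male-labelled mean was the higher one for 31 of 34 members, against 47.4% of all features. Their median difference, male minus female, was 0.45 log2, against -0.01 for all features, and single members ran between -0.17 and 0.80. Among named genes, 2773 of 4859 had the higher male-labelled mean, with a median difference of 0.04 log2. No member passed (limma, adjusted p threshold 0.05 over all features, lowest adjusted p among members 0.948), in a comparison where 0 of 29509 features (0.0%) were called. At an unadjusted p under 0.05, limma gave 11 of 34 members higher in the male-labelled libraries, against 1.77% of features, and 0 lower, against 2.04%. All 11 were mitosis genes. The members were chosen with earlier results of these data known, so these shares are no test of the list. In bulk leukocyte RNA, more dividing cells and more of these transcripts per cell cannot be told apart.

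For most members the higher male-labelled mean lay mainly in 2 of the 3 libraries. In 27 of 34 members the libraries labelled male 1 and male 2 were the 2 highest of the 6, an order found in 8.19% of all features. The library labelled male 3 lay under the highest female-labelled library in 25 of 34 members, no more often than in all features (78.8%). It lay under the female-labelled mean in 10 of 34, less often than in all features (49.0%). Male 1 was the highest library for 25 members (12.7% of all features) and male 2 for 6 (13.8% of all features). Female 1 was the lowest for 16 members (19.9% of all features) and female 3 for 11 (22.8% of all features). The SD among male-labelled libraries exceeded that among female-labelled ones in 29 of 34 members (85.3%), against 39.4% of all features. The median SD of members was 0.37 log2 among the male-labelled and 0.19 among the female-labelled libraries.

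**Figure D1:**
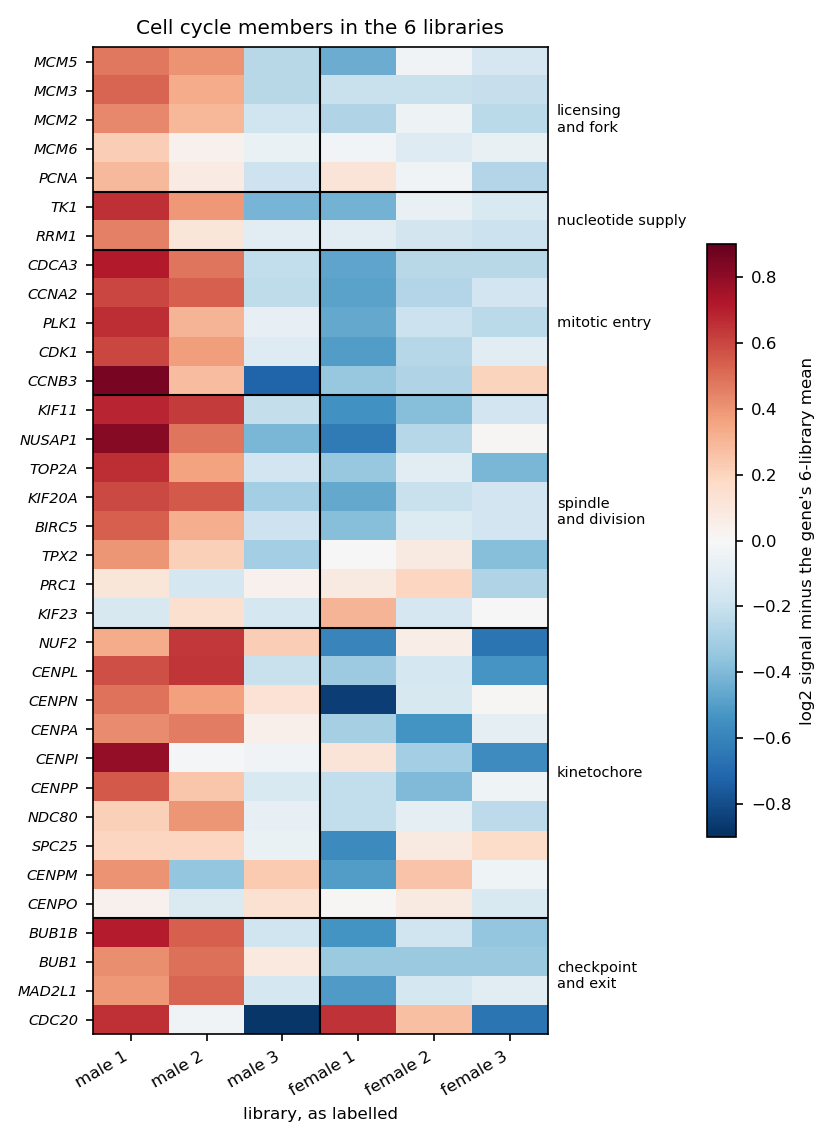
Heat map of the 34 measured members (rows, grouped by role) in the 6 libraries (columns, as labelled), coloured by log2 signal minus each gene's mean over the 6 libraries. Each row is the gene's brightest probe. Male 1 and male 2 are the 2 highest libraries in 27 of 34 rows. On these probes PCNA, KIF23, PRC1, CENPI, CENPM, CENPO and CDC20 depart from this order.

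Without male 3 and female 3, the members' median difference was 0.72 log2, against -0.04 for all features, and 30 of 34 had the higher mean in male-labelled libraries, against 45.7% of features. Leaving out male 3 alone gave a members' median of 0.68 log2, and leaving out female 3 alone gave 0.47. With both left out, both remaining male-labelled libraries lay above both female-labelled ones in 27 of 34 members, against 25.2% of features. Still no member passed (limma, adjusted p between 0.0884 and 0.855), while 85 of 29509 features did (0.288%). At an unadjusted p under 0.05, limma gave 22 members as higher, against 8.77% of features, and 0 lower, against 12.8%. None of the 34 lies on the Z or W chromosome in the RefSeq table.

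Replication and mitosis members kept a similar order of libraries, described here by the median over members of each gene's deviation from its own 6-library mean. For the 7 replication members the deviation was 0.45, 0.30 and -0.19 log2 in the male-labelled libraries, against -0.20, -0.07 and -0.19 in the female-labelled ones. For the 27 mitosis members it was 0.55, 0.37 and -0.16 in the male-labelled libraries, against -0.39, -0.16 and -0.17 in the female-labelled ones. Male 1 and male 2 thus stood above the other 4 libraries in both arms. In both, male 3 was close to the female-labelled libraries. Female 3, which read like male 1 and male 2 on HINTW, was also low in both, at -0.19 and -0.17. It lay above a member's own 6-library mean for only 5 members. The split of libraries in these medians thus matched neither the labels nor the HINTW readings. The median male minus female difference was 0.37 log2 for replication members and 0.56 for mitosis members, and 0.53 and 0.79 without male 3 and female 3. Leaving out male 1 alone brought the medians to 0.20 for replication and 0.38 for mitosis members. Without male 1, MCM2 and MCM3 were each at 0.25, MCM6 at 0.057, RRM1 at 0.16 and TK1 at 0.20, and among mitosis members NUSAP1 was at 0.33, BIRC5 at 0.30, CENPP at 0.27 and CENPI at 0.23. Whether the arms differ was not tested.

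**Figure D2:**
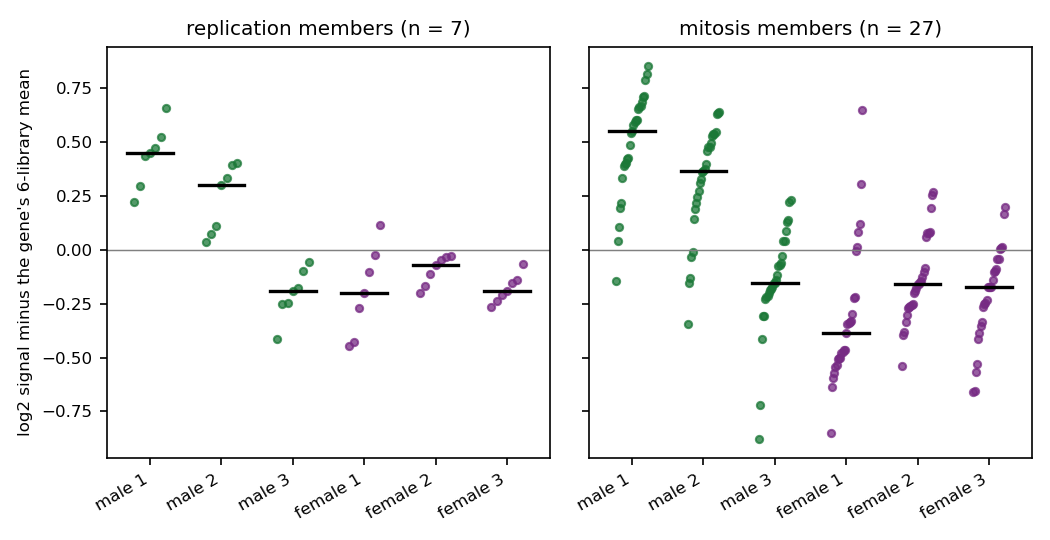
Deviation of each member from its own 6-library mean (log2, vertical axis) by library, for the 7 replication members on the left and the 27 mitosis members on the right; points are genes and bars are medians. The medians of male 1 and male 2 are 0.45 and 0.30 for replication and 0.55 and 0.37 for mitosis, and every other library's median is below 0.

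Helicase and replication fork genes were measured for 5 of 8 listed members, and the male-labelled mean was higher for all 5, by 0.12 to 0.42 log2. MCM2, a subunit of the MCM helicase, read 2.18, 2.04 and 1.57 in the male-labelled libraries, against 1.47, 1.70 and 1.504 in the female-labelled ones. Male 3 fell inside the female-labelled range, so the labels overlapped, and the difference was 0.37 log2 (SE 0.19, 1.29-fold), and 0.53 without both. MCM3, another subunit, read 0.74, 0.56 and -0.03 in the male-labelled libraries, against 0.02, 0.02 and 0.01 in the female-labelled ones. Its female-labelled libraries were nearly identical (SD 0.0056), and male 3 sat just under them. The difference for MCM3 was 0.41 log2 (SE 0.22), and 0.63 without male 3 and female 3.

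MCM5 gave -2.58, -2.65 and -3.30 in the male-labelled libraries, against -3.50, -3.08 and -3.20 in the female-labelled ones, a difference of 0.42 log2 (SE 0.24), and 0.67 without both. MCM6 differed less, at 0.14, -0.05 and -0.14 in the male-labelled libraries, against -0.11, -0.20 and -0.15 in the female-labelled ones. Both overlapped between labels through male 3. The difference for MCM6 was 0.13 log2 (SE 0.13) on its brightest probe (0.20 without both), and 0.44 and 0.36 on its other probes. On the MCM6 probe with 0.44 the labels did not overlap. PCNA, the sliding clamp, read 1.93, 1.71 and 1.45 in the male-labelled libraries, against 1.75, 1.604 and 1.37 in the female-labelled ones. Unlike the MCM genes, its next highest library after male 1 was female 1, and the difference was 0.12 log2 (SE 0.18), and 0.14 without both. The PCNA difference was 0.0021 without male 1 and 0.017 without female 3.

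Nucleotide supply was represented by 2 of 4 listed genes. RRM1, the large subunit of ribonucleotide reductase, read 1.44, 1.096 and 0.88 in the male-labelled libraries, against 0.88, 0.82 and 0.79 in the female-labelled ones. The labels did not overlap, but male 3 and female 1 were almost level. The difference was 0.31 log2 (SE 0.17), and 0.42 without both, and its 4 probes gave 0.27 to 0.49. On the next brightest RRM1 probe the labels overlapped, with male 3 under female 2. TK1, thymidine kinase of the salvage pathway, read -1.92, -2.19 and -2.99 in the male-labelled libraries, against -3.01, -2.65 and -2.72 in the female-labelled ones. Male 3 and female 1 were the lowest for TK1, and its difference of 0.42 log2 (SE 0.29) became 0.77 without male 3 and female 3.

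Mitotic entry genes were measured for 5 of 7 members and all 5 were higher in the male-labelled mean, with a median difference of 0.60 log2. PLK1, a kinase that promotes entry and spindle assembly, read -1.72, -2.08 and -2.46 in the male-labelled libraries, against -2.85, -2.58 and -2.63 in the female-labelled ones. The labels did not overlap, with male 3 the nearest to the female-labelled libraries, and the difference was 0.60 log2 (SE 0.21, 1.52-fold), and 0.81 without both. CDCA3, which promotes the breakdown of the CDK1 inhibitor WEE1, read 1.66, 1.42 and 0.72 in the male-labelled libraries, against 0.47, 0.69 and 0.69 in the female-labelled ones. Here male 3 exceeded the highest female-labelled library by 0.03 log2, and the difference was 0.65 (SE 0.26), and 0.96 without male 3 and female 3.

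CDK1, the mitotic kinase itself, read 2.39, 2.16 and 1.67 in the male-labelled libraries, against 1.28, 1.53 and 1.69 in the female-labelled ones. Male 3 lay just under female 3, so the labels overlapped narrowly. The difference was 0.58 log2 (SE 0.22), 0.87 without these libraries, and a further CDK1 probe gave 0.75. On that further probe the labels did not overlap. CCNA2, cyclin A2, read -0.13, -0.19 and -0.96 in the male-labelled libraries, against -1.21, -0.99 and -0.90 in the female-labelled ones, with male 3 inside the female-labelled range. Its difference was 0.61 log2 (SE 0.25), and 0.94 without both. CCNB3, a B-type cyclin, spread more widely, from -1.11 in male 3 to 0.47 in male 1, and its difference of 0.27 log2 (SE 0.41) turned to -0.09 without male 1 and was 0.87 without both. Its dimmer probe gave 0.16, and only 0.18 without both, with male 2 under female 2.

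Spindle and division genes were measured for 8 of 10 members, 6 of them higher in the male-labelled mean and 2 lower. KIF11, the kinesin that separates spindle poles, read 0.20, 0.14 and -0.70 in the male-labelled libraries, against -1.03, -0.87 and -0.66 in the female-labelled ones. Male 3 lay just under female 3, and the difference was 0.73 log2 (SE 0.27, 1.66-fold). Without male 3 and female 3 it was 1.12 log2 (2.17-fold), the largest among members, with a limma adjusted p of 0.0884. TOP2A, which untangles chromosomes, read 1.96, 1.65 and 1.12 in the male-labelled libraries, against 0.95, 1.19 and 0.88 in the female-labelled ones. Only female 2 exceeded male 3 for TOP2A, and the difference was 0.57 log2 (SE 0.24), 0.74 without both, with 0.37 and 0.29 on its other probes.

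BIRC5, the chromosomal passenger protein survivin, read 2.54, 2.33 and 1.81 in the male-labelled libraries, against 1.61, 1.87 and 1.82 in the female-labelled ones. Its 4 probes differed by 0.43 to 0.49 log2, the brightest by 0.46 (SE 0.21), and by 0.69 without both. Male 3 fell inside the female-labelled range. KIF20A, a kinesin of cytokinesis, read -1.52, -1.57 and -2.42 in the male-labelled libraries, against -2.58, -2.32 and -2.29 in the female-labelled ones, with male 3 again inside that range. The difference was 0.56 log2 (SE 0.27), and 0.90 without both, and its 5 probes gave 0.47 to 0.78. On the KIF20A probes with 0.60 and 0.78 the labels did not overlap. NUSAP1, which binds spindle microtubules, differed by 0.59 log2 (SE 0.35), and by 1.09 without both. TPX2, an activator of AURKA, differed by 0.21 (SE 0.23), and by 0.27 without both, but by 0.058 without male 1 and 0.063 without female 3.

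KIF23 and PRC1, which bundle the central spindle before cytokinesis, did not share this order on their brightest probes. KIF23 read -0.38, -0.10 and -0.40 in the male-labelled libraries, against 0.07, -0.39 and -0.24 in the female-labelled ones, and female 1 was the highest. Its difference was -0.11 log2 (SE 0.17), 0.021 without female 1 and -0.08 without both. PRC1 read -1.77, -2.03 and -1.83 in the male-labelled libraries, against -1.79, -1.68 and -2.14 in the female-labelled ones. The labels overlapped throughout, with a difference of -0.0058 log2 (SE 0.17) on the brightest PRC1 probe, but its other probes gave 0.44 and 0.37. Without both, the brightest PRC1 probe was at -0.16. On the next brightest PRC1 probe male 1 and male 2 were the highest libraries, at -2.32 and -2.49, followed by female 2 at -2.81. PRC1 was the only member whose kept probes lay on both sides of 0.

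Kinetochore and centromere genes were measured for 10 of 14 members. All 10 were higher in the male-labelled mean, with a median difference of 0.47 log2. Male 3 lay under the female-labelled mean in 0 of these 10, against 49.0% of all features. Its median deviation was 0.0069 log2, against 0.41 and 0.31 in male 1 and male 2 and -0.31, -0.12 and -0.11 in the female-labelled libraries. NUF2, part of the NDC80 complex that grips microtubules, had the largest difference of any member. It read 0.34, 0.65 and 0.23 in the male-labelled libraries, against -0.59, 0.07 and -0.65 in the female-labelled ones. On this brighter probe the labels did not overlap, and male 3 stood with the other male-labelled libraries. On the dimmer probe NUF2 read -1.57, -0.24 and 0.02 in the male-labelled libraries, against -1.03, -0.92 and -1.01 in the female-labelled ones. Male 1 was the lowest library there, so the labels overlapped. NUF2 differed by 0.80 log2 (SE 0.24, 1.74-fold), but by 0.39 on its dimmer probe, and by 0.75 on the brighter and 0.07 on the dimmer probe without both. NDC80, its partner, read -1.03, -0.85 and -1.32 in the male-labelled libraries, against -1.47, -1.34 and -1.49 in the female-labelled ones. For NDC80 the gap between labels was 0.011 log2, and the difference was 0.36 (SE 0.16), and 0.46 without both. On its dimmer probe the difference was 0.42 and the labels overlapped, with male 3 under female 3.

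CENPA, the histone that marks centromeres, read -4.56, -4.53 and -4.94 in the male-labelled libraries, against -5.28, -5.53 and -5.07 in the female-labelled ones. Labels did not overlap, by a gap of 0.13 log2, and the difference was 0.62 (SE 0.19, 1.53-fold), 0.86 without both and 0.25 with normexp background correction. CENPN, which recognises CENPA nucleosomes, read -5.79, -5.91 and -6.14 in the male-labelled libraries, against -7.13, -6.42 and -6.27 in the female-labelled ones. The groups were again apart, but female 1 was not well above background on this probe, and the difference was 0.66 log2 (SE 0.25). It was 0.93 without both, 0.40 without female 1 and 0.13 with normexp. CENPL, another subunit of the constitutive centromere network, read -2.62, -2.56 and -3.40 in the male-labelled libraries, against -3.53, -3.36 and -3.73 in the female-labelled ones. Male 3 fell inside the female-labelled range for CENPL, and its probes gave 0.68 (SE 0.26) and 0.70 log2, the brighter 0.86 without both. On the dimmer CENPL probe the labels did not overlap.

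Of the other kinetochore members, CENPI differed by 0.50 log2 (SE 0.29), and by 0.48 without both and 0.26 with normexp. Its dimmer probe gave 0.55, and 0.63 without both. On that CENPI probe male 1 and male 2 were the highest libraries and the labels did not overlap. CENPP differed by 0.44 (SE 0.21), and by 0.71 without both. On its dimmer probe CENPP differed by 0.37 and the labels did not overlap. SPC25, also of the NDC80 complex, differed by 0.22 (SE 0.23), and by 0.44 without both, with female 1 alone far under the rest. CENPM differed by 0.19 (SE 0.28), and by 0.15 without both, and male 2 and female 1 were its lowest libraries. CENPO stayed between -3.71 and -3.43 in all 6 libraries, with a difference of 0.03 log2 (SE 0.14). Without female 1 the difference was -0.014 for SPC25 and -0.010 for CENPM, and CENPO was -0.092 without male 3 and female 3.

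Checkpoint and exit genes were measured for 4 of 6 members. BUB1, a checkpoint kinase at kinetochores, read -1.25, -1.18 and -1.58 in the male-labelled libraries, against -2.004, -2.004 and -2.007 in the female-labelled ones. It had the widest gap between labels of any member, 0.42 log2, and male 3 lay between the other male-labelled libraries and the female-labelled ones. Its difference was 0.67 log2 (SE 0.15, 1.59-fold) and 0.79 without both, with an unadjusted limma p of 0.0038, the lowest among members, and an adjusted p of 0.948. BUB1B, which inhibits the anaphase-promoting complex, read 0.09, -0.08 and -0.80 in the male-labelled libraries, against -1.15, -0.80 and -0.97 in the female-labelled ones. Male 3 and female 2 were level for BUB1B, and its difference was 0.71 log2 (SE 0.26), and 0.98 without male 3 and female 3. MAD2L1, the checkpoint protein MAD2, read -0.12, 0.01 and -0.67 in the male-labelled libraries, against -1.02, -0.67 and -0.61 in the female-labelled ones. Male 3 was level with female 2 and under female 3, and the difference was 0.51 log2 (SE 0.23), and 0.79 without both.

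CDC20, the target of that checkpoint, ran apart from the genes that restrain it. It read 5.25, 4.56 and 3.72 in the male-labelled libraries, against 5.24, 4.86 and 3.94 in the female-labelled ones. Male 1 and female 1 were the highest and both libraries numbered 3 the lowest, so the labels overlapped fully. The difference was -0.17 log2 (SE 0.48), and all 3 CDC20 probes were lower in the male-labelled mean, by -0.17, -0.21 and -0.28. CDC20 turned to 0.22 without male 3 and to 0.11 without female 1, and was -0.15 without both.

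**Figure D3:**
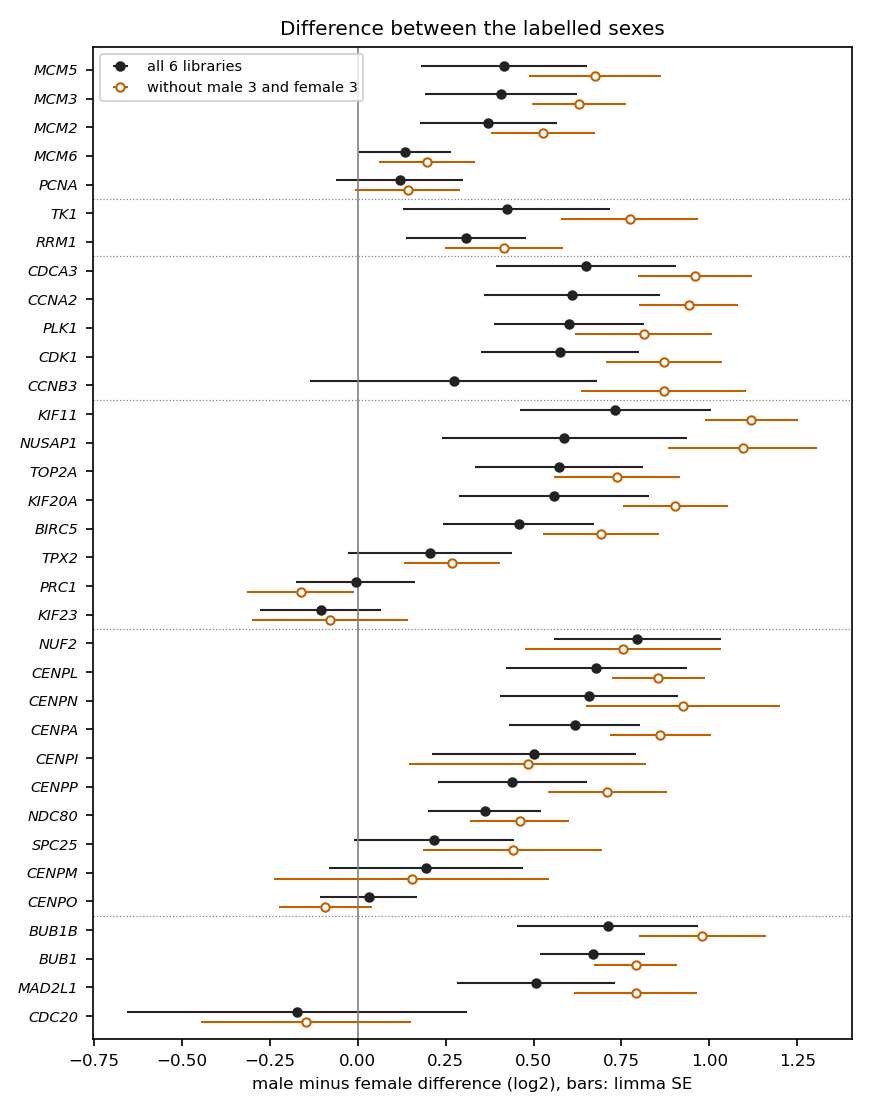
Male minus female difference in log2 signal for the 34 members (rows, grouped by role), with limma SE as bars; filled points use all 6 libraries and open points leave out male 3 and female 3. Filled points are above 0 for 31 of 34 members, and open points lie farther right for most, up to 1.12 for KIF11.

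Over the list, 8 of 34 members (23.5%) had all 3 male-labelled libraries above all 3 female-labelled ones, against 3.84% of all features, and 0 had the reverse, against 4.16%. The 8 were RRM1, PLK1, CDCA3, CENPA, CENPN, NDC80, NUF2 and BUB1. This count turned on male 3: without it 27 members were apart (10.3% of features), and without female 3 it was 13 (17.9%). Among named genes, 279 of 4859 had all 3 male-labelled libraries above all 3 female-labelled ones, and 147 had the reverse. For NDC80 and NUF2 the separation was on the brightest probe only, and the other kept probe overlapped. RRM1 overlapped on its next brightest probe but was apart on the brightest and on the dimmer ones. PLK1, CDCA3, CENPA, CENPN and BUB1 had 1 kept probe each. The opposite also occurred. CDK1, MCM6, KIF20A, CENPI, CENPL and CENPP overlapped on the brightest probe, but a dimmer probe had every male-labelled library above every female-labelled one. In 11 members the male-labelled mean was at least 1.5-fold higher, against 2.91% of features. Where a member had several kept probes they mostly ran the same way: 18 of 21 such members were higher on every probe, CDC20 and KIF23 were lower on every probe, and PRC1 was mixed. The median gap between the most and least different probe of a gene was 0.08 log2.

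Other cell cycle genes outside the list, grouped by role, had smaller median differences, and none passed in either direction (limma, adjusted p 0.948 or more). At an unadjusted p under 0.05, limma gave 5 further replication genes and 5 further mitosis genes as higher in the male-labelled libraries and 0 as lower, against 1.77% and 2.04% of all features. These lists were drawn up with earlier results of the same data known. Of 26 further replication genes measured, 23 were higher in the male-labelled mean (47.4% of all features), with a median of 0.27 log2 (0.41 without male 3 and female 3). POLE2, a subunit of DNA polymerase epsilon, differed by 0.57 (SE 0.17) and RFC1, of the clamp loader, by 0.58 (SE 0.19). DUT, which removes dUTP, differed by 0.70 (SE 0.26) and RPA2, of the single-strand binding complex, by 0.36 (SE 0.14). The largest value in this list, 2.26 log2 (SE 1.59) for PRIM2, a primase subunit singled out after its values were seen, came from female 2, which read -6.56 against -1.09 to 0.51 in the other libraries, and without female 2 it was 0.35.

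Of 29 further mitosis genes, 28 were higher, against the same 47.4%, with a median of 0.28 log2 (0.47 without male 3 and female 3). CENPS, a kinetochore subunit, differed by 0.57 (SE 0.20), CKS1B, which binds cyclin-dependent kinases, by 0.59 (SE 0.23), CENPT by 0.31 (SE 0.12) and SGO1, which protects centromeric cohesion, by 0.69 (SE 0.27). CCNB1, the gene with the synonym CCNB2, read 1.41, 1.12 and 0.72 in the male-labelled libraries, against 0.63, 0.78 and 0.78 in the female-labelled ones, the same order as most members. KIFC1, a spindle kinesin, was the 1 gene lower, and is named for that, at -0.23 log2 (SE 0.14).

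The remaining cell cycle lists had medians nearer to the 0.04 log2 of all named genes. Condensin and cohesin genes had a median of 0.12 log2 (0.17 without both), 5 of 8 higher. The condensin subunits SMC2, on the Z chromosome, and NCAPH differed by 0.85 (SE 0.45) and 0.44 (SE 0.23), NCAPD2 by 0.19 (SE 0.13) and SMC4 by 0.15 (SE 0.16). G1 cyclins, kinases and E2F factors had a median of 0.04 log2 (0.126 without both), 9 of 14 higher, with cyclin E2 (CCNE2) at 0.41 (SE 0.17), E2F1 at 0.19 (SE 0.13), CCNE1 at 0.29 (SE 0.20) and E2F5 at 0.25 (SE 0.18). Brakes on the cycle had a median of 0.05 log2 (-0.014 without both), 7 of 12 higher. Among them CDKN3, a phosphatase of cyclin-dependent kinases, was at 0.50 (SE 0.17).

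CDKN1A, the inhibitor p21, read 2.19, 1.51 and 2.79 in the male-labelled libraries, against 3.05, 3.57 and 2.57 in the female-labelled ones. Male 1 and male 2, the highest libraries for most members, were the lowest for this gene. Its difference was -0.90 log2 (SE 0.39), and -1.46 without male 3 and female 3. GADD45A, a stress-induced gene, was at -0.36 (SE 0.16) and TOB2 at -0.27 (SE 0.13), both with every male-labelled library under every female-labelled one. CDKN3 was the reverse, with every male-labelled library above every female-labelled one. Of 12 brakes, 2 were thus apart downward and 1 upward, against 4.16% and 3.84% of all features.

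**Figure D4:**
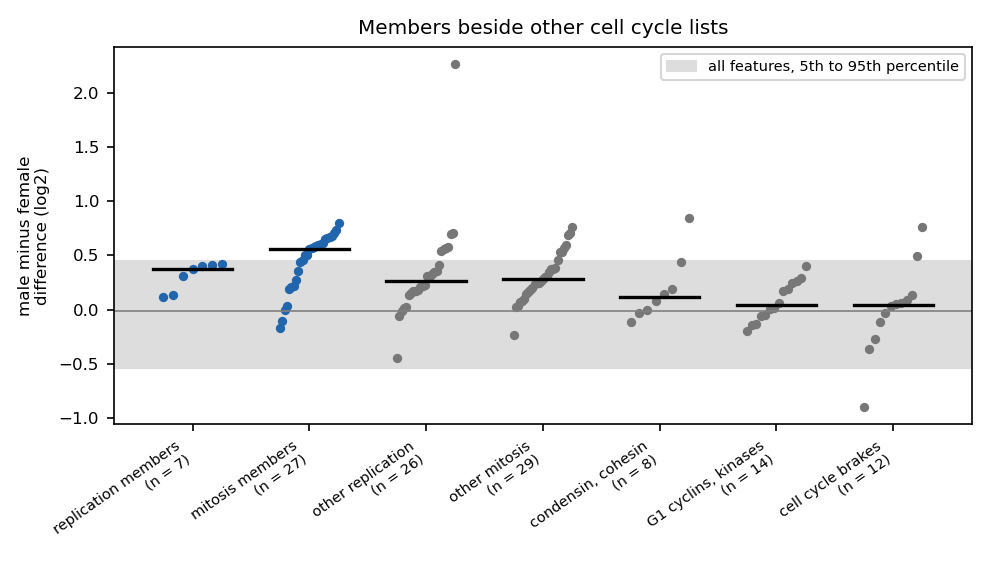
Male minus female difference (log2) of each measured gene in the replication and mitosis members (blue) and in 5 other cell cycle lists (grey); bars are medians, the grey band holds the 5th to 95th percentile of all 29509 features and the thin line is their median. The mitosis members have the highest median, 0.56, while G1 genes and brakes have medians of 0.04 and 0.05.

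Leukocyte marker lists were read in the same libraries, since blood cell types differ in how much they divide, and no marker passed. Of 13 cytotoxic cell markers listed, 6 were measured and all 6 were higher in the male-labelled mean, with a median of 0.99 log2 (1.54 without both). Their summed linear signal, in units of each array's 75th percentile, was 68.7, 163 and 28.7 in the male-labelled libraries, against 16.0, 38.2 and 32.8 in the female-labelled ones. Male 2 and male 1 had the highest sums, with male 2 above male 1, but such a sum rests mostly on the brightest markers. Taken singly, 4 of the 6 markers had male 1 and male 2 as the 2 highest libraries, against 8.19% of all features. CCL5, a chemokine, read -1.31, 0.16 and -2.21 in the male-labelled libraries, against -4.17, -2.84 and -2.27 in the female-labelled ones, and GZMA, granzyme A on the Z chromosome, differed by 1.98 log2 (SE 1.02). The part of cytotoxic cells in the members' difference was not tested.

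B cell markers were higher in 7 of 9, with a median of 0.31 log2 (0.55 without both) and a summed signal of 96.6 to 110 in male-labelled, against 69.2 to 107 in female-labelled libraries. Female 1 had the lowest B cell sum, and also the lowest T cell and cytotoxic cell sums. It was the lowest library for 16 of 34 members, against 19.9% of all features. The part of B and T cells in the members' difference was not tested. POU2AF1 and TNFRSF13B, both B cell genes, differed by 0.42 (SE 0.22) and 0.72 (SE 0.41). T cell markers were higher in 3 of 11, with a median of -0.04 (-0.14 without both) and sums of 354 to 398 in male-labelled against 308 to 426 in female-labelled libraries, and TCF7 and CD8A at -0.33 and 0.44. Plasma cell markers had a median of -0.0035 (-0.0062 without both), 2 of 4 higher, with sums of 18.2 to 20.7 in male-labelled against 18.5 to 19.9 in female-labelled libraries, and XBP1 and IRF4 at 0.09 and -0.05. None of these B, T and plasma cell lists placed male 1 and male 2 together above the rest.

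Erythroid markers, which matter here because chicken red cells are nucleated and their precursors divide, were higher in only 3 of 15, with a median of -0.19 log2. Without both, 1 of 15 was higher and the median was -0.62. Their summed signal was 1194, 632 and 1441 in the male-labelled libraries, against 1244, 1090.3 and 1010.5 in the female-labelled ones, so male 2 was the lowest. XK and RHAG, both red cell membrane genes, differed by 1.77 (SE 0.50) and -1.69 (SE 0.55), but the XK probe was well above background on only 4 of the 6 arrays. Thrombocyte markers were higher in 0 of 5, with a median of -0.12 (-0.078 without both) and sums of 251 to 336 in male-labelled against 305 to 348 in female-labelled libraries, and TUBB1 at -0.12. Among monocyte and macrophage markers 5 of 10 were higher (median 0.0088, and 0.17 without both), with sums of 89.1 to 111 in male-labelled against 76.7 to 131 in female-labelled libraries, and CD36 and FCER1G at -0.62 and 0.80. Heterophil markers had sums of 8.22 to 116 in male-labelled against 13.2 to 156 in female-labelled libraries, with the highest in male 3 and female 3. Their median was -0.52 (-0.74 without both), 1 of 9 higher, with MMP9 and AvBD4 at -0.49 and -0.95. Male 2 had the lowest heterophil sum, and the part of heterophils and of red cells in the members' difference was not tested.

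**Figure D5:**
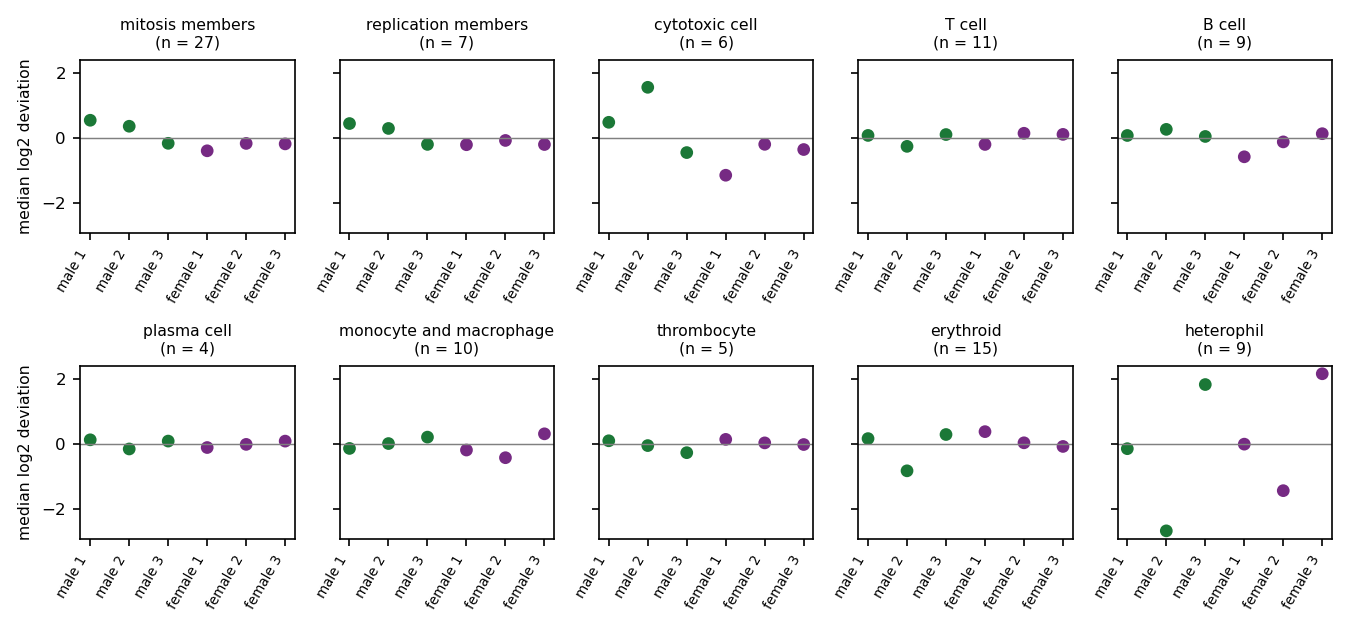
Median deviation from each gene's 6-library mean (log2, vertical axis) by library, for the replication and mitosis members and for 8 leukocyte marker lists; green points are male-labelled and purple points female-labelled libraries. Male 1 and male 2 stand above the other 4 libraries for the members and for cytotoxic cell markers, and not for the other 7 lists.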

How the data were processed

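RNA from 6 leukocyte samples was hybridised to 1-colour Agilent arrays. Per the file headers, Feature Extraction 11.5.1.1 produced the deposited spot intensity values, already background-subtracted by the scanner software. The log2 of the processed signal less each array's 75th percentile was computed here, control and outlier spots were left out, and spots of a probe were averaged. Probes well above background on at least 3 arrays were kept. Probe accessions were matched to RefSeq's table for bGalGal1.mat.broiler.GRCg7b, which named 11935 of 43603 probes as 5382 genes, and the brightest probe stood for a gene. Male minus female was fitted by limma 3.58.1 (R 4.3.3) with Benjamini-Hochberg adjustment over 29509 features and a threshold of 0.05. The fit was tested on simulated data with 50 changed features per fold. It called 0% of 1.5-fold, 14% of 2-fold, 44% of 4-fold and 88% of 8-fold changes. The largest member difference with all 6 libraries was 1.74-fold, for NUF2.

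Values by library are given for up to 4 members per role with the smallest unadjusted p, members without overlap, members lower in the male-labelled mean, and TOP2A, CDK1, PCNA and MCM2. Pathway lists name up to 4 genes and cell type lists up to 2, by smallest p. The members and lists were chosen with earlier results of these data known. Alternatives changed the background correction, scaling, deposited matrix values, probe filter, probe summary, variance model, replicate block and left-out libraries. Same-numbered samples did not deviate together (correlations 0.0106, -0.109 and -0.214). Promoter and protein sequences were not analysed here.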

Additional observations from a re-analysis of the deposited data

How the results depend on the processing

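Of 543 gene differences recomputed under the alternatives, 527 kept their direction and stayed on the same side of the threshold, and 16, in 7 genes, changed sign; the cause was not tested. Leaving out 1 library or both doubtful ones (male 3 and female 3), CCNB3 ran from -0.086 log2 without male 1 to 0.870 without both, and KIF23 from -0.208 without female 2 to 0.021 without female 1. PRC1 ran from -0.162 without both to 0.09 without female 2, with 0.07 without male 2 and 0.034 without female 1, and it was 0.024 with normexp, 0.041 with median scaling, 0.011 with quantile normalization and 0.27 with the mean of its probes. CENPM ran from -0.010 without female 1 to 0.414 without male 2, and SPC25 from -0.014 without female 1 to 0.440 without both. CENPO ran from -0.092 without both to 0.11 without male 2, and was -0.03 without male 3 and -0.03 without female 3. CDC20 ran from -0.544 without female 3 to 0.22 without male 3, and was 0.11 without female 1. Called members numbered 0 under each alternative run, while called features numbered 0 with all 6 libraries, 1 with quantile normalization, 0 to 2 leaving out 1 library and 85 without both. Members without overlap numbered 8, 7 to 10 under changed processing of all 6 libraries, 8 to 27 leaving out 1 library, and 27 without both. The members' median difference of 0.45 log2 ran between 0.29 and 0.68 leaving out 1 library and was 0.72 without both, where the further mitosis genes had 0.47. Leaving out 1 library, the median ran between 0.20 and 0.55 for replication members and between 0.38 and 0.75 for mitosis members. Under changed processing of all 6 libraries, the median of all members ran from 0.34 with normexp to 0.50 with median scaling. Under the same changes it ran between 0.28 and 0.42 for replication members and between 0.42 and 0.61 for mitosis members. The G1 median of 0.04 was 0.086 with median scaling, 0.090 with the mean of probes, 0.027 to 0.101 leaving out 1 library and 0.126 without both. The brakes' median of 0.05 ran from -0.015 without male 1 to 0.026 without female 3, was -0.014 without both, 0.092 with median scaling, 0.0021 with the mean of probes and 0.0014 without genes on Z or W. The condensin and cohesin median of 0.12 was 0.049 with the mean of probes and 0.072 to 0.177 leaving out 1 library. With the replicate block the members' median was 0.45 and 0 were called, and the numbers did not pair the samples. No member lay on Z or W, so none was left out for that. Dim signal limits CENPN, not well above background in female 1.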
